A study of Mus musculus with 6 samples.

Results

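The regions described here are places inside genes where a window of Runx2 occupancy was listed both in chondrocytes cultured with interleukin-1β (IL-1β) and in chondrocytes in normal culture. Runx2 occupancy was measured by chromatin immunoprecipitation with sequencing (ChIP-seq), in which an antibody recovers the DNA that a protein sits on. Each condition had a list of 1000 windows, every window 100 bp wide, and the members were selected on those lists. A window was kept when it overlapped a window of the other list by at least 1 bp, when its centre lay over 500 bp from every transcript start named in either list, and when that centre lay inside at least 1 of those transcripts. This rule took 173 windows of the 1000 in the IL-1β list and 173 of the 1000 in the normal list, which pair off into 173 sites in 163 host genes. In all, 551 windows of each list overlapped the other list, which is 55.1% of the IL-1β list and 55.1% of the normal list, and besides the 173 sites inside genes they lay between genes (269 sites) or within 500 bp of a start (109 sites). Because overlap and place chose the members, both are given as a description.

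The cells were primary chondrocytes of 5-day-old C57BL/6 mice (C57BL/6J in the study's methods), and every group came from Runx2-FLAG mice, in which the Runx2 protein itself carries a biotin and FLAG tag. The treated culture received IL-1β, an inflammatory cytokine, at a labelled dose of 1 ng per µL (the study's methods give this number per mL), and the normal culture received none. Anti-FLAG, control IgG and input libraries were made from each culture, 1 library per group, 6 in all, and each list compares an anti-FLAG library with the input of its own culture. With 1 library per group there was no replicate error for any value and no test of IL-1β against normal culture could be made. The lists hold a number for each window, from 1 to 1000, here called its list position and taken as the order of the calls, but no read count or enrichment, so the depth is unknown. They hold no expression values either, so the labelled cell type could not be checked against its markers.

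Runx2 belongs to the RUNX family of transcription factors, which hold DNA through a conserved Runt domain together with the partner CBFβ. In the growth plate Runx2 is known for driving chondrocyte hypertrophy and bone formation, and its relatives Runx1 and Runx3 recognise the same short word. A window inside a gene is usually in an intron, where enhancers are common, and the gene that holds it is not necessarily the gene it acts on.

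The following sequences were read from the mm9 genome at 10 of these sites, chosen to show the leading sites, the cartilage and signalling genes described further on, and the sites with the most Runx words. Each is the 100 bp around the mean centre of the 2 overlapping windows, given on the plus strand, 5′ to 3′. Capitals mark the Runx word, TGTGGT or TGCGGT, on either strand, so that ACCACA and ACCGCA are the same words read from the other strand. All 10 hold the word, while 52 of the 173 members do not.
Itgb3 intron 1 (chr11:104473031-104473130): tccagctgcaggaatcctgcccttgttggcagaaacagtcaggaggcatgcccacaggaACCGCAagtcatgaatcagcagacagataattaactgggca
Plxnd1 intron 8 (chr6:115924035-115924134): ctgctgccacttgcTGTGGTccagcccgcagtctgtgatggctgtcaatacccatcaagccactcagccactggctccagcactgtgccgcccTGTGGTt
Xylt1 intron 2 (chr7:124630810-124630909): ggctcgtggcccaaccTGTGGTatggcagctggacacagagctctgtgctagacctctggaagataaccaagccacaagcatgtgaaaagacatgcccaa
Smpd3 intron 1 (chr8:108816501-108816600): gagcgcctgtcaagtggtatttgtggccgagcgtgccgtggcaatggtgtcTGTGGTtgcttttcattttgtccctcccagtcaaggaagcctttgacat
Ccnd1 intron 2 (chr7:152123499-152123598): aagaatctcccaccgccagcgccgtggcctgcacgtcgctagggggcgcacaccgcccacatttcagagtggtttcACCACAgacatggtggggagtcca
Runx1 intron 3 (chr16:92654231-92654330): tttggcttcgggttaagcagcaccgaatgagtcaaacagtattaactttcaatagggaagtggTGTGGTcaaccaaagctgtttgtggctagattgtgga
Gli2 intron 2 (chr1:120824712-120824811): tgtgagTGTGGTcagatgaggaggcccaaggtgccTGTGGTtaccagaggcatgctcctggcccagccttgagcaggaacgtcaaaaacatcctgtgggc
Tnxb intron 5 (chr17:34818138-34818237): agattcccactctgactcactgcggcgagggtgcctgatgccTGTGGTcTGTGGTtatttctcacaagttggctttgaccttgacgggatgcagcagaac
Fat1 intron 2 (chr8:46082047-46082146): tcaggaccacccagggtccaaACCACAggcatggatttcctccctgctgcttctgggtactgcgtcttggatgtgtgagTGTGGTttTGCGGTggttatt
Tcea3 intron 8 (chr4:135824976-135825075): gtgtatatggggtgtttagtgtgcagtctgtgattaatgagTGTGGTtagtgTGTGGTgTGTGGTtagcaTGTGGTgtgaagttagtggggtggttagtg

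The Runx word was found in 121 of the 173 shared windows inside genes, or 69.9% (Wilson 95% interval 62.7 to 76.3%). In the members' own flanks, 100 bp taken 1000 bp upstream of each centre on the strand of the host gene, it was found in 17 of 173, or 9.83% (6.23 to 15.2%), and 1000 bp downstream in 19 of 173. Of the pairs that differed, 107 had the word in the window alone and 3 in the upstream flank alone (exact McNemar test, two-sided, p = 3.42e-28, Benjamini-Hochberg adjusted p = 7.69e-27 over 45 comparisons). Over all 1449 places in either list the share was 60.2%. The sequence was not part of the rule, and intervals cover counting error only.

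The share in shared windows inside genes was close to that in shared windows between genes and in windows inside genes in 1 list, and neither difference passed the test. Shared windows between genes held the word at 184 of 269 sites, or 68.4% (62.6 to 73.7%), so that the members lay 1.54 percentage points higher with a 95% interval of -7.38 to 10.1 (Fisher's exact test, two-sided, adjusted p = 1). This difference turned to -1.96 points when the transcripts of GENCODE M1, a fuller annotation of the same genome, placed every window, and was 0.632 to 4.67 points under the other alternatives. Windows inside genes that were found in 1 list only held it at 172 of 255 places, or 67.5% (61.5 to 72.9%), a difference of 2.49 points with an interval of -6.55 to 11.2 (Fisher's exact test, adjusted p = 0.961), and 0.636 to 6.54 points under its alternatives. Shared windows at starts held it at 53 of 109 sites, or 48.6% (39.5 to 57.9%), a lower share whose difference from the members was not tested. With the longer word that ends in another T or C, the share was 61.3% in members and 2.89% in their upstream flanks. It was 56.9% in shared windows between genes and 55.7% in windows inside genes in 1 list. Neither of these differed from the members by the test (Fisher's exact test, adjusted p = 0.884 and 0.793).

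**Figure D1:**
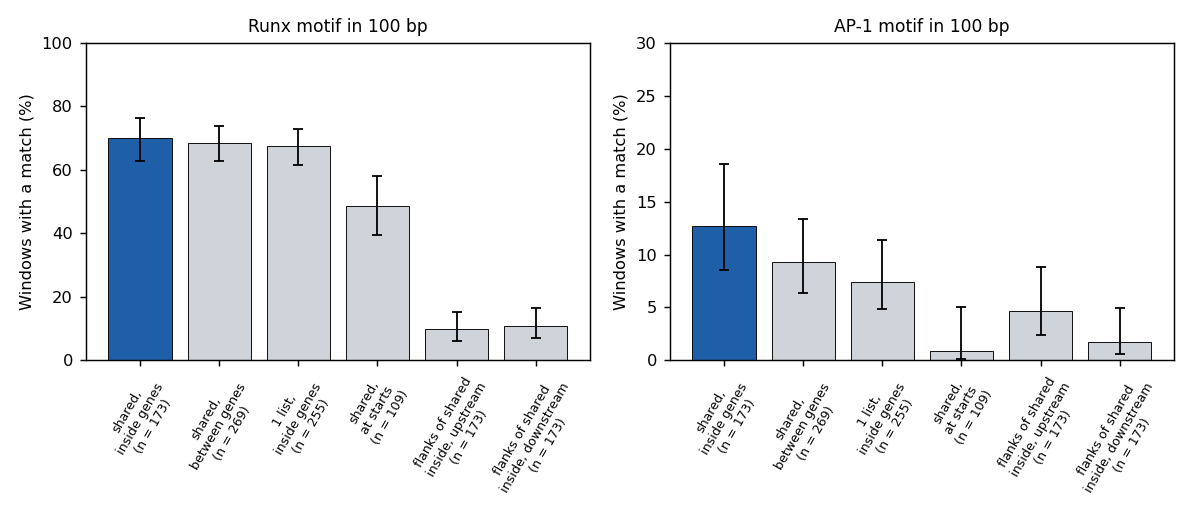
Share of windows with a Runx word (left) or an AP-1 word (right) in 100 bp, in percent, for shared windows inside genes (blue) and, to their right, other sets of windows and the flanks of the members; bars are shares and error bars are Wilson 95% intervals. The Runx share was 69.9% in shared windows inside genes, close to the 68.4% and 67.5% of the next 2 sets and above the 9.83% of their upstream flanks.

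The words were more frequent toward the window centres. The 173 sites held 170 matches, of which 141 read TGTGGT and 29 TGCGGT, and 102 of the 170 lay within 25 bp of the centre and 66 within 15 bp. These are 60% and 38.8% of the matches, against 53.7% and 32.6% of the 95 places where a word of this length can start in the window. The difference was not tested. The Gpd2 site in intron 9 had its match at the centre itself and the Smpd3 site had one 4 bp away, while the Peli2 site in intron 3 had its match 47 bp from the centre. The base before the word was C in 51.8% and T in 28.2% of matches, and the base after it was T in 55.3%, C in 25.3% and A in 3.53%. The match lay on the strand of the host gene 97 times and on the opposite strand 73 times.

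**Figure D2:**
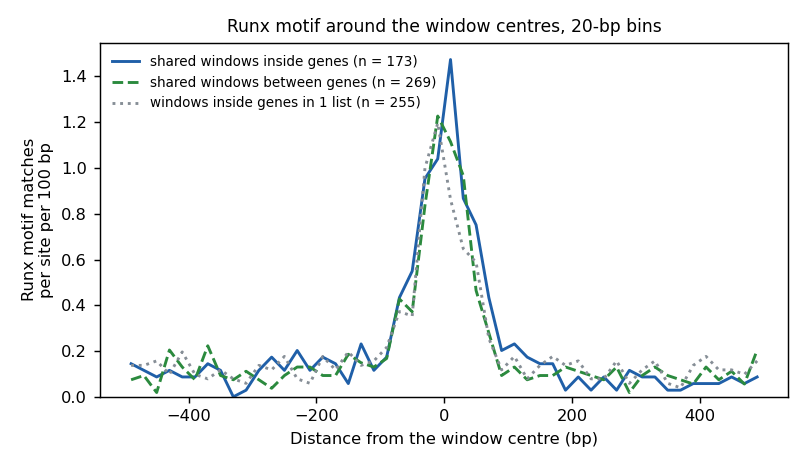
Runx words per site per 100 bp in bins of 20 bp, against the distance from the window centre in bp, for shared windows inside genes (173 sites, solid line), shared windows between genes (269, dashed) and windows inside genes in 1 list (255, dotted). All 3 lines are highest within 20 bp of the centre. The members' line stands at 0.434 at 70 bp on either side, beyond the 100 bp window, and no line exceeds 0.231 from 90 bp outward.

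Many sites held the word more than once. There were 79 sites with 1 match, 36 with 2, 5 with 3 and 1 with 4, which leaves 52 with none. The site with 4 was in intron 8 of Tcea3, a transcription elongation factor gene, where the words start 11, 7 and 11 bp apart within a GT-rich stretch (position 394 in the IL-1β list and 246 in the normal list). The 5 sites with 3 were those in Fat1 (atypical cadherin), Sft2d2, Wdr51a (now Poc1a), Foxred2 and Sh3bp4. Neighbouring words began 6 to 87 bp apart with a median of 30 bp over 49 pairs, and 37 pairs had both words on the same strand. Sites with 2 or more words made up 24.3% of members (18.5 to 31.2%), against 17.1% (13.1 to 22.1%) of shared windows between genes and 14.9% of windows inside genes in 1 list. These 2 comparisons were added after the values were seen, and neither passed (adjusted p = 0.524 and 0.127, Fisher's exact test). Among the first 500 positions of each list the sign of both differences turned, with 19 of 97 members against 28 of 137 and 22 of 111.

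The 52 sites without the Runx word often held a word 1 letter away from it. Of 17 words that differ at 1 place from TGTGGTT, the most frequent were TGTGGCT, in 12 of the 52 windows against 2 of their upstream and 0 of their downstream flanks, and AGTGGTT, in 9 against 0 and 1. One or both were in 21 of the 52 windows, or 40.4%, against 2 upstream and 1 downstream flank, and in 17 of the 85 shared windows between genes that lacked the Runx word, or 20%. Among windows inside genes that lacked it, the share was 10 of 52, or 19.2%, in the IL-1β list only and 11 of 31, or 35.5%, in the normal list only. Over all 1449 places TGTGGCT was in 10.1% and AGTGGTT in 3.31%. The words were chosen after the values were seen, so these counts carry no test. Counting them, 142 of the 173 members held the Runx word or 1 of these near words, which were picked as the most frequent in the members. Shared windows between genes held the Runx word at 184 of 269 sites and a near word at 17 more. For windows inside genes in 1 list it was 172 of 255 places, with 10 (IL-1β list only) and 11 (normal list only) more. Examples follow, with the near word in capitals, from sites where the Runx word is missing.
Antxr1 intron 12 (chr6:87169791-87169890): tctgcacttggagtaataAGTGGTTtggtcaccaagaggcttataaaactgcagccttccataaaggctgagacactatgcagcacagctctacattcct
Tex14 intron 2 (chr11:87262620-87262719): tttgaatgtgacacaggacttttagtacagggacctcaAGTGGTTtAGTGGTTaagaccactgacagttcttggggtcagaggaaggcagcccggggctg
Wwp2 intron 4 (chr8:109992926-109993025): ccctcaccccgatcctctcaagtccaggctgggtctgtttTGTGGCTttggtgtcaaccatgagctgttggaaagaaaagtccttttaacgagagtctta
Tmprss6 intron 10 (chr15:78280640-78280739): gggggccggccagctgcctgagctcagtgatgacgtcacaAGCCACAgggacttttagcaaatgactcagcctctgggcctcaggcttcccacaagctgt

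Among them is the site in intron 12 of Antxr1, which encodes a collagen-binding cell surface receptor (positions 119 in IL-1β and 34 in normal culture). The Tex14 window (positions 363 and 169) holds AGTGGTT a pair of times, the starts 8 bp apart. The Wwp2 window in intron 4 (positions 184 and 213) holds TGTGGCT. Of the 52 sites, 26 had a Runx word when 200 bp were searched and 26 had none. With 200 bp searched, 147 of 173 members held the word. So did 216 of 269 shared windows between genes and 200 of 255 windows inside genes in 1 list. Neither difference passed (Fisher's exact test, adjusted p = 0.746 and 0.576).

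The word for AP-1, the Fos and Jun factors of the inflammatory and mitogenic response, was searched as TGANTCA on both strands. It was in 22 of 173 members, or 12.7% (8.55 to 18.5%), against 25 of 269 shared windows between genes, or 9.29% (6.37 to 13.4%), and 19 of 255 windows inside genes in 1 list, or 7.45% (4.82 to 11.3%). Over all 1449 places the share was 7.38%. The difference from shared windows between genes was 3.42 points (adjusted p = 0.793, Fisher's exact test) and 1.21 points when GENCODE M1 transcripts placed every window, and against the upstream flanks, with 8 of 173, the unadjusted p was 0.0125 and the adjusted p 0.141 (exact McNemar test). Of the 22, 14 also held the Runx word, among them the sites in Itgb3, Fpgs, Runx1, Lgals3 and Tnxb, and 8 did not, among them Anxa2, Tgfbr3 and Mertk. The words for TEAD (GGAATG, 22 members and 8 upstream flanks, adjusted p = 0.14) and NFI (TTGGCA or TTGGCC, 36 and 20, adjusted p = 0.149) did not pass the exact McNemar test either. The TEAD share was lower in members (12.72%) than in shared windows between genes (14.87%) and windows inside genes in 1 list (15.29%). The NFI share was higher in members (20.81%, against 15.99% and 15.69%). No difference from these sets passed (Fisher's exact test, adjusted p = 0.96 and 0.947 for TEAD, 0.711 and 0.711 for NFI).

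A different word stood at a few sites, most of them without a Runx word. REST is a zinc-finger repressor of neuronal genes that binds a long element with a left and a right arm. The arms CAGCACC and GGACAGC, with 1 or 2 bases between them and at most 1 of the 14 letters different, were found in 5 of 173 members, or 2.89% (1.24 to 6.59%), and in none of their upstream or downstream flanks, which allows a share of up to 1.73%. The word was in 3 of 269 shared windows between genes, in 1 of 157 windows inside genes in the IL-1β list only and in 15 of 1449 places in all, or 1.04%. It was noticed in the sequences and then counted, so no test was made. The Unc5a and Phf21b windows are also among those with a near word. The 5 windows are shown with the REST word in capitals, on either strand.
Npas4 intron 1 (chr19:4989118-4989217): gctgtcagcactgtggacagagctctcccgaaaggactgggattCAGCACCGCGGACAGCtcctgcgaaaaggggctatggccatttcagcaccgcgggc
Unc5a intron 1 (chr13:55072375-55072474): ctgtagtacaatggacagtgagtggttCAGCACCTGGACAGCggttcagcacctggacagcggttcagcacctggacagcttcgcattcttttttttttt
Camta1 intron 3 (chr4:150978745-150978844): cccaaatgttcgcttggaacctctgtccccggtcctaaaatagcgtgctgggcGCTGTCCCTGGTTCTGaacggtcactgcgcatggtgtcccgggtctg
Phf21b intron 2 (chr15:84659954-84660053): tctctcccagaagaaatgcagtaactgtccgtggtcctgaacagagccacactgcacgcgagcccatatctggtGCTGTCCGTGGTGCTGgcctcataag
Garnl3 intron 15 (chr2:32873699-32873798): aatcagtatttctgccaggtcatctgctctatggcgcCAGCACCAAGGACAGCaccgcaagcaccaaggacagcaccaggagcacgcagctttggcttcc

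The Npas4 site, in a gene for a neuronal activity factor, was at position 22 in the IL-1β list and 302 in the normal list. The site in intron 1 of Unc5a, a netrin receptor gene, was at positions 13 and 749, and repeats the word 3 times with 1 base between the arms. Those in Camta1 (339 and 644) and Phf21b (409 and 686) also stood earlier in the IL-1β list, and that in Garnl3 (794 and 676) stood earlier in the normal list and is the only 1 of the 5 with a Runx word. Among the windows found in 1 list, anywhere in the genome, the word was in 6 of 449 of the IL-1β list and in 1 of 449 of the normal list. Of the 6, only the Xkr7 window held both arms with no letter different, and the others differed at 1 letter. The window of the normal list, at Wdr24, also had no letter different. The contrast between the lists therefore rests on the letter allowed to differ, and it was not tested.

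The members stood early in both lists, but selection by overlap between lists cut at 1000 windows can itself favour early positions. The positions are therefore given as a description. Their positions ran from 7 to 977 with a median of 298 in the IL-1β list, and from 7 to 996 with a median of 328 in the normal list. Shared windows between genes had medians of 335 and 389, and windows inside genes in 1 list stood later, with medians of 712 (IL-1β list only) and 732 (normal list only). Across the 173 sites the positions in the 2 lists had a Spearman rho of 0.576, given as a description because both lists come from the same rule. For shared windows between genes it was 0.586. The positions at a site differed by a median of 130, by at most 50 at 37 sites and by over 300 at 38, and 97 sites stood earlier in the IL-1β list and 76 earlier in the normal list. The window centres were a median of 20 bp apart, and at most 93 bp.

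**Figure D3:**
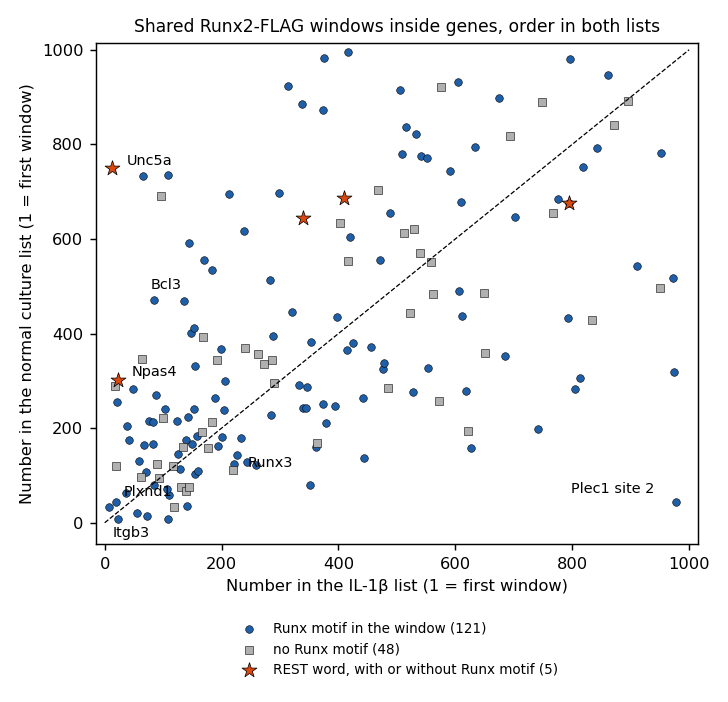
List position in IL-1β culture (horizontal axis) and in normal culture (vertical axis) of the 173 sites, where 1 is the first window of a list and the dashed line marks equal positions; circles have a Runx word (121), squares have neither a Runx word nor a REST word (48) and stars have a REST word (5, of which 1 also has a Runx word). Itgb3 and Plxnd1 lie near the origin, Plec1 site 2 is early in the normal list alone, and Unc5a is early in the IL-1β list alone.

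The site with the best mean position lay in intron 1 of Itgb3, the gene of integrin β3, 3767 bp from its start (positions 23 in IL-1β and 7 in normal culture). The site in intron 8 of Plxnd1, a semaphorin receptor gene, was next (7 and 33), and then that in intron 1 of Rchy1, a ubiquitin ligase gene (20 and 44). The site of Sfpi1 (now Spi1, the leukocyte factor PU.1) was in coding exon 5, close to the end of the gene and 18442 bp from its start (56 and 20). Sites in Ahi1 (72 and 14), Peli2 (37 and 62), Fpgs (108 and 8), Galk2 (19 and 120), Antxr1 (119 and 34), Gm672 (now Ctif, 63 and 97), Fat1 (85 and 79), Slc14a2 (110 and 59), Palld (141 and 36), Gpd2 (106 and 72) and Xylt1 (71 and 108) completed the 15. Their hosts range from cell adhesion (Fat1, Antxr1) and actin assembly (Palld, palladin) to intermediary metabolism (Gpd2, Fpgs), and Peli2 encodes a ubiquitin ligase of the IL-1 receptor pathway.

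Genes of the cartilage matrix were hosts at a few sites. Xylt1 encodes the xylosyltransferase that starts the glycosaminoglycan chains of proteoglycans, and held 2 sites in its intron 2, 2196 bp apart (71 and 108, and 89 and 125). Col27a1, a fibrillar collagen of cartilage, held a site in intron 37 (650 and 358), and Tmem2 (now Cemip2), a hyaluronidase gene, held one in intron 2 (286 and 344). Of the fibril and collagen list, Tnxb (tenascin X) held one in intron 5 (374 and 251) and Anxa2 (annexin A2) one in intron 1 (134 and 161). The second Xylt1 site and those of Col27a1, Tmem2 and Anxa2 held no Runx word in 100 bp, while the first Xylt1 site and that of Tnxb did. Smpd3, the sphingomyelinase that mouse bone and cartilage need for mineralisation, held one in intron 1, 45337 bp from its listed start (59 and 131).

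Among regulators, the Runx family itself was represented. Runx3 held a site in intron 1 (220 and 111) 26260 bp from the start of its long transcript, with no Runx word in 100 bp and 1 in 200 bp, and also a shared window at its own start. Runx1 held a site in intron 3 (361 and 160) with both a Runx and an AP-1 word, and further windows in the IL-1β list only, 1 inside the gene and 1 at its start. Intron 3 is counted on the listed transcript with the nearest start, and on the longest listed transcript the site was in intron 5. Gli2, a Hedgehog effector, held a site in intron 2 with a pair of Runx words (188 and 264). Hdac4, a corepressor of Runx2 in cartilage, held one in intron 1 (552 and 771), Smad3, which carries TGF-β signals, one in intron 1 (973 and 517), and Nfia one in intron 4 (403 and 633).

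Wwp2, a ubiquitin ligase gene that also carries the cartilage microRNA miR-140, held the most windows of the 163 hosts, with 5. Its 2 shared sites were in intron 4 (184 and 213) and intron 8 (693 and 818), and neither held the Runx word in 100 bp. A further 1 window was in the IL-1β list only and 2 in the normal list only. Cuedc1 and Xylt1 followed with 4 windows each. These counts do not take the length of the gene into account.

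Signalling hosts were spread over both ends of the lists. Ccnd1 (cyclin D1, intron 2) was at 67 and 165, Ltbp1 (latent TGF-β binding protein, intron 3) at 83 and 212, Bmpr1b (a BMP receptor, intron 1) at 442 and 263 and Tgfbr3 (betaglycan, intron 14) at 529 and 622. Bcl2, which protects from apoptosis, had its site in intron 1 (532 and 821), and Pthr1 (now Pth1r), the receptor that holds back hypertrophy under PTHrP, had its in intron 3 (872 and 840). The NF-κB partner Bcl3 was the only host of the IL-1 and protease list, with a site in intron 2 at position 84 in the IL-1β list and 472 in the normal list. Hosts of the adhesion and cytoskeleton list, besides Itgb3, Plxnd1 and Palld, included Pxn (paxillin, 619 and 278), Tns3 (tensin 3, 515 and 836), Tiam2 (a Rac activator, 177 and 158, and 485 and 284) and Arhgap10 (194 and 162, and 575 and 922).

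Counted by list, 30 of the 163 hosts belonged to any of 11 gene lists, or 18.4%, against 37 of 228 hosts of windows found in 1 list, or 16.2%, and 130 of all 1332 genes named in either file, or 9.76%. Of those 1332 genes, 163 were hosts of a shared window. The adhesion list gave 8 hosts of its 21 genes named anywhere in the files, the chondrocyte and bone transcription list 8 of 31, the growth factor signalling list 6 of 25, the cartilage matrix list 3 of 17, the collagen list 2 of 14, the hypertrophy list 1 of 7 and the IL-1 and protease list 1 of 13. Of marker lists for other cell types, the macrophage and leukocyte list had 1 gene named, the host Sfpi1, the endothelium list gave 0 hosts of 3 named, and no gene of the skeletal muscle and adipocyte lists was named. Among hosts of windows in 1 list, the transcription list gave 12, the adhesion list 8 and the collagen list 7. The cartilage matrix and growth factor signalling lists gave 4 each there, and the hypertrophy list and the IL-1 and protease list 1 each. The gene lists were chosen with earlier results of these data known, so these shares are a description. Long genes offer more room for windows, and no test of these counts was made.

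The sites that differed most in position were led by Plec1 (now Plec), the gene of the cytoskeletal linker plectin, whose second site was at position 977 in the IL-1β list and 43 in the normal list. After it came Srgap1 (975 and 318), Wdr51a (742 and 198), Trpm1 (805 and 283) and Arhgef17 (814 and 305), all earlier in the normal list. In the other direction Unc5a led, followed by Samd4 site 2 (65 and 734), Hmgcll1 (109 and 735), Frs2 (313 and 923) and Mgat5 site 2 (375 and 983). Srgap1 holds 2 Runx and 2 AP-1 words. Whether such a difference exceeds the spread between replicates could not be tested with 1 library per condition.

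Of the 163 hosts, 10 held 2 sites and the other 153 held 1. The paired sites were 2196 to 235813 bp apart with a median of 38476 bp, and only those of Xylt1 and Plec1 were within 10000 bp of each other. In Galk2 (19 and 120, then 610 and 678), Antxr1 (119 and 34, then 478 and 337) and Mgat5 (166 and 191, then 375 and 983) the 2 sites stood far apart in both lists. In Plec1 the first site was at 443 and 136, and in Samd4 the first was at 240 and 370, each with a second site earlier in 1 list. Bach2, a transcription repressor gene, held sites at 489 and 654 and at 604 and 931, whose nearest starts belong to different transcripts of the gene.

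By the transcript with the nearest start, 168 sites were in introns and 5 in exons. Of the 168, 54 were in intron 1, 31 in intron 2 and 83 in a later intron. The distance from the start of the host ran from 594 to 784219 bp with a median of 39426 bp, 25 sites were within 5000 bp and 45 were over 100000 bp away. These are distances to listed transcripts, and GENCODE M1 holds nearer starts of some hosts. The Palld site was 145399 bp from the listed start but 2799 bp from a GENCODE M1 start, and the Tgfbr3 site 164850 and 8254 bp. At other sites, such as Arhgap10 site 1 (175537 and 175538 bp), the distance hardly changed. Intronic sites lay a median of 4534 bp from the nearest exon. Intron 1 held 54 of 173 members, or 31.2%, against 76 of 255 windows inside genes in 1 list, or 29.8% (difference 1.41 points, interval -7.31 to 10.4, adjusted p = 1, Fisher's exact test). Within positions 1 to 500 it was 33 of 97 against 30 of 111, a difference of 6.99 points (adjusted p = 0.775, Fisher's exact test). On average intron 1 took 28.1% of the length of the members' hosts. The Runx word was in 40 of the 54 sites in intron 1, or 74.1% (61.1 to 83.9%), and in 77 of 114 in other introns, or 67.5% (58.5 to 75.4%).

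**Figure D4:**
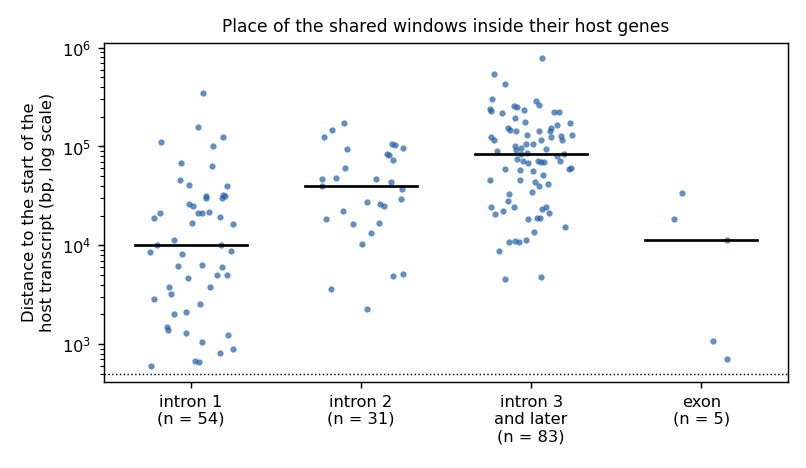
Distance in bp (log scale) from each of the 173 sites to the start of its listed host transcript, by the intron or exon that holds it; points are sites, horizontal bars are medians and the dotted line marks the 500 bp limit. GENCODE M1 holds nearer starts of some hosts. The medians were 10135 bp for intron 1, 39426 bp for intron 2 and 84404 bp for later introns.

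At the 500 bp limit, the nearest members were in Gng5 (594 bp from a start), Lgals3 (656 bp) and Rchy1 (668 bp), and the nearest shared windows left out were at Dscr3 (470 bp), Hmg20b (469 bp) and Sertad2 (410 bp). The latest members of the lists were Vezt (417 in IL-1β and 996 in normal culture), Mgat5 site 2 and Snx27 (797 and 981). GENCODE M1 placed 162 of the 173 in introns, 3 in coding exons, 3 in untranslated regions, 2 in other exons and 3 outside protein-coding genes, and found 11 within 500 bp of a start that neither list names. Those 11 include the Rchy1 site (157 bp), the Foxred2 site (18 bp) and the Trpm1 site (421 bp), and the sites outside genes include those of Smpd3 and Slc14a2. The normal list named a gene other than the host at 31 sites, such as Myl4 at the Itgb3 site and Hk3 at the Unc5a site, while the IL-1β list named the host at all 173. The Prkar2b site (75 and 216) lies in sequence that occurs many times in the genome, with a median of 84 copies of its 32-base words.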

How the data were processed

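The authors aligned reads to mm9 (Bowtie2 2.2.2 per the submitters' processing notes) and called anti-FLAG peaks against input with CisGenome, 1 call per culture. The deposited lists hold, for the authors' 1000 windows per culture, a list number, the window and its nearest transcript, and no scores, counts or signal. IgG libraries were not used here. The members and the gene lists were chosen with earlier results of these data known. Whether starts count from 0 or 1 is not stated, so a printed sequence may be shifted by 1 base.

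Windows were joined by overlap, and the host of a site is the listed transcript around its centre with the nearest start. Current symbols came from RefSeq and were found for 172 of 173 sites. In all, 14 motif words were searched on both strands with pysam 0.24.0. Besides those spelled in the results, they were CRE (TGACGTCA), Sox (CAAAG or CAATG after 2 bases of A or T), ETS (GGAA after A or C and before A or G), C/EBP (TTNCNNAA with A or G as the third base), E-box (CANNTG with C or G in the middle), Sp1 (GGGCGG), STAT (TTCNNNGAA), the nuclear receptor word (AGGTCA) and NF-κB. The longer Runx word contains the shorter. Fisher's and McNemar's exact tests (scipy 1.17.1) and a permutation test of GC content (100000 resamples) were adjusted together over 45 comparisons by Benjamini-Hochberg, with 0.05 as threshold. Intervals were Wilson and Newcombe (statsmodels 0.14.6). Each comparison of sites with 2 or more Runx words was adjusted by adding it alone to these 45. For an alternative, its p took the place of the main p of that comparison before the adjustment. The computations were tested on simulated data. Alternatives changed the overlap, the start distance, the depth of the lists, the annotation, the motif, the stretch searched and the flanks.

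Genes were named by a rule: hosts of the 15 sites with the best mean position, hosts with 2 sites, hosts in the gene lists, the 5 largest position differences each way, the 5 sites with the most Runx words and the sites at the limits. A few named by the rule are not reported here. Others named for a near word, an AP-1 word, a REST word or repeated sequence were chosen after their values were seen.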

Additional observations from a re-analysis of the deposited data

How the results depend on the processing

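Across 9 results and 35 alternatives, 31 values were classed as unchanged. A tested comparison was so classed when it kept its direction and its side of the threshold. The number of sites and the correlation of positions, which had no test, were so classed when they stayed close to the main value. The number of shared windows inside genes was 97 with only positions 1 to 500 of each list, and between 157 and 182 under the other alternatives, from a main value of 173. The Runx difference from shared windows between genes became -1.96 points (Fisher's exact test, adjusted p = 1) when GENCODE M1 transcripts placed every window, an alternative chosen after seeing the data, and the cause was not tested. The difference in sites with 2 or more Runx words became -0.23 points against windows in 1 list and -0.85 points against shared windows between genes within positions 1 to 500, and the cause was not tested. The Runx difference from the members' own flanks ran from 58.4 to 63.6 points under its alternatives, against 60.1 points. Leaving out sites in repeated sequence changed no call in the 7 results it was run on. Leaving out the 11 sites within 500 bp of a GENCODE M1 start was run on the comparison with the members' own flanks alone and did not change that call. Windows inside genes are placed only by transcripts that a list names, so a window in 1 list may be counted as between genes for lack of a listed host. Of the 255 windows inside genes in 1 list, 157 were in the IL-1β list only and 98 in the normal list only. Whether this limit falls unequally on the 2 lists was not tested. The lists end at 1000 windows, so a window absent from a list may have been called further down. No paired analysis was possible because each culture had 1 anti-FLAG library.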

Other observations

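Of the 163 hosts, 11 also held a window inside the gene in the IL-1β list only and 10 one in the normal list only, among them Gli2 (1 in the normal list) and Palld and Nfia (1 each in the IL-1β list). The sites lay on 20 chromosomes, with 16 each on chromosomes 2 and 9 and 1 each on chromosomes 16 and X, and 90 were in genes on the plus strand and 83 in genes on the minus strand. GC content averaged 51.0% in the members, against 51.0% in shared windows between genes and 51.5% in windows inside genes in 1 list.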
